A study of Mus musculus with 5 samples.

Results

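The Notch receptors, ligands and modifiers described here are 10 genes, chosen by symbol: the receptors *Notch1*, *Notch2* and *Notch3*, the ligands *Dll1*, *Dll3* and *Jag1*, the nuclear effector *Rbpj*, the inhibitor *Numb* and the glycosyltransferases *Lfng* and *Mfng*. All 10 were found in the deposited table, as 18 of its 22227 transcripts and 10 of its 12588 gene sums, a gene sum being the sum of the normalized counts over the listed transcripts of a symbol. RNA was sequenced from untreated mouse neural stem/progenitor cells (NSPCs) of the C57BL/6J background, grown with FGF-2 and EGF, each at 20 ng/ml. Of the 5 libraries, 2 are labelled WT and numbered 1 and 4, and 3 are labelled p75NTR-/- and numbered 1, 2 and 4. The p75NTR-/- mice carry a germline mutation of *Ngfr*, the gene of the p75 neurotrophin receptor, in every cell, and the WT animals were littermates. The labels give the cells as E12.5, whereas the methods describe adult subventricular zone, and both are stated here because no value decides between them. The study describes the replicas as independent NSPC preparations, while the labels themselves tie no library to an animal, litter or day.

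Notch signaling runs between touching cells. A Delta or Jagged ligand on a neighbouring cell pulls on a Notch receptor, which is then cut by an ADAM protease and by gamma-secretase. The freed intracellular domain enters the nucleus, binds the DNA-binding protein Rbpj together with a Mastermind coactivator and switches on repressors of the Hes and Hey families. In neural progenitors these repressors hold back proneural genes, which themselves raise Delta ligands, so that progenitors and their differentiating neighbours keep each other in balance.

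The recovered totals lay between 11688211 and 14452396 counts per library. *Ngfr*, the targeted gene, was read first and goes against the labels, with 0.98 and 2.08 normalized counts in the libraries labelled WT (replicates 1 and 4) and 9.89, 141 and 251 in replicates 1, 2 and 4 labelled p75NTR-/-. These counts cover the whole transcript and not a deleted part. The groups are therefore named by their labels, and every direction below is that between labels. The libraries numbered 4 stood close together, with a median absolute log2 difference of 0.09 over the 10786 gene sums with a mean of at least 50 normalized counts, against 0.35 between the libraries numbered 1. All 8 neural progenitor markers were listed, and their summed level was 85492 to 111716 normalized counts under the WT label and 92203 to 117859 under the p75NTR-/- label. That sum was for the most part *Fabp7* (35613 to 39744), *Vim* (20556 to 44562), *Slc1a3* (11597 to 18280) and *Nes* (8704 to 23123). *Nes* was higher and *Slc1a3* lower without overlap under the p75NTR-/- label, as were 7.76% and 6.96% of the 10786 gene sums. The labels overlapped for *Fabp7*, *Vim*, *Sox2* (714 to 1517), *Sox9* (333 to 963), *Msi1* (335 to 527) and *Prom1* (17.8 to 80.3). Of markers of other cells, 5 of 6 astrocyte genes (25700 to 27287 and 17784 to 29034), 5 of 8 oligodendrocyte lineage genes (2347 to 4807 and 2376 to 5793), 3 of 7 neuron genes (5845 to 9486 and 5654 to 9141), 2 of 7 endothelial genes (69.7 to 251 and 75.7 to 284), 2 of 7 mural genes (54.9 to 62.4 and 71.8 to 274), 1 of 5 fibroblast genes (26 to 37.3 and 10.9 to 33.6) and 0 of 6 microglial genes were listed, with *Dcx*, *Rbfox3*, *Sox10*, *Mbp*, *Pecam1*, *Cdh5* and *Pdgfrb* among those not in the table. The astrocyte and neuron sums were for the most part those of *Aldh1l1* (16444 to 25549 normalized counts) and *Map2* (5401 to 9156). The other astrocyte genes were lower and less even, with *Gfap* at 1.20 to 746, *Aqp4* at 69.3 to 696, *S100b* at 347 to 1421 and *Slc1a2* at 785 to 2136. *Tubb3* and *Snap25*, the other neuron genes, had 184 to 274 and 50.7 to 81.7. In these bulk libraries fewer cells that express a gene and less RNA per cell cannot be told apart.

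Levels of different genes were compared per length, in TPM, a share of the library's transcripts corrected for their lengths. *Lfng* was far above the other members in every library, at 99.8 to 169 TPM. Next came *Rbpj* at 19.7 to 34.5 TPM, *Dll1* at 12.4 to 35.4 TPM, *Notch1* at 12.3 to 29.8 TPM and *Notch3* at 9.62 to 21.3 TPM. Over the libraries the ranges of neighbours in this order overlapped widely, whereas some orders held within each library, as described below. The lowest members were *Mfng*, *Dll3*, *Jag1*, *Notch2* and *Numb*, with medians of 8.75, 7.57, 7.21, 7.10 and 6.34 TPM, again with overlapping ranges. For *Numb* this leaves out the coding fragments described below.

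**Figure D1:**
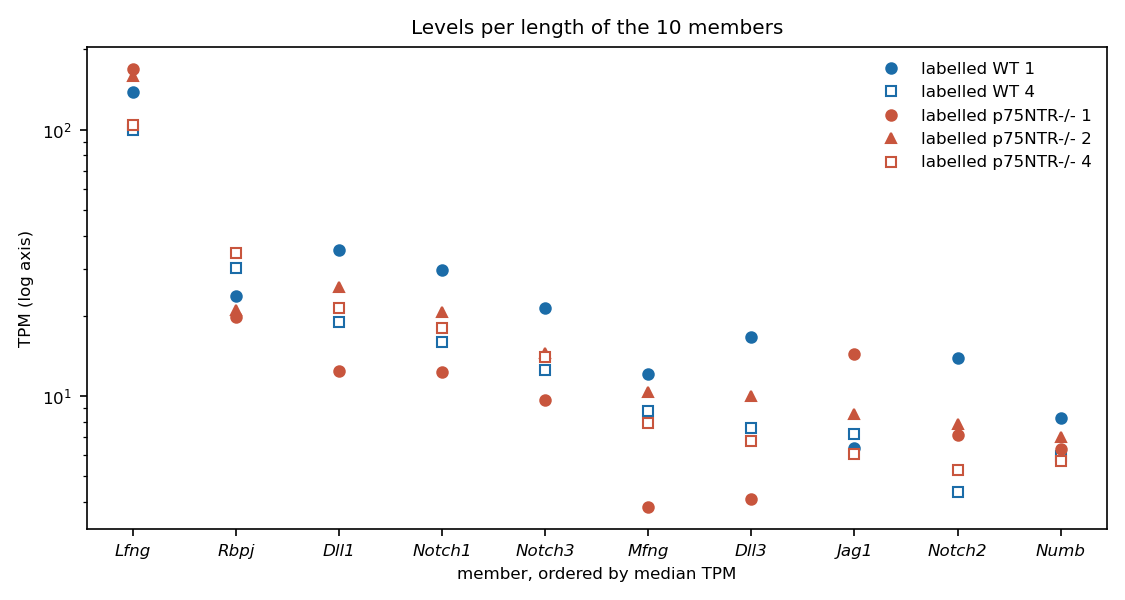
TPM on a log axis of the 10 members, ordered by median, with 1 symbol per library (blue, labelled WT, and red, labelled p75NTR-/-; open symbols are the libraries numbered 4). *Lfng* at 99.8 to 169 TPM stands apart, and the ranges of all later neighbours overlap.

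Some orders held within every library. *Notch1* exceeded *Notch3* and *Notch3* exceeded *Notch2* in 5 of 5 libraries. The ratio of *Notch1* to *Notch3* TPM was 1.27 to 1.42, a narrow span, whereas that of *Notch1* to *Notch2* ran from 1.74 to 3.66. *Dll1* was above *Notch1* by a ratio of 1.01 to 1.25 and above *Dll3* by a ratio of 2.14 to 3.15. By contrast, the ratio of *Jag1* to *Dll1* was 0.18 in replicate 1 labelled WT, 0.381 in replicate 4 labelled WT and 1.16, 0.333 and 0.283 in replicates 1, 2 and 4 labelled p75NTR-/-. The ratio of *Rbpj* to *Notch1* also crossed 1, with 0.795 in replicate 1 labelled WT and 1.02 to 1.92 in the others. Replicate 1 labelled p75NTR-/- was the single library in which the Jagged ligand exceeded Dll1.

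Of the receptors, *Notch1* encodes the receptor best known for keeping neural progenitors undifferentiated. Its listed transcript (ENSMUST00000028288, chromosome 2 of GRCm38 from 26457903 to 26503822, minus strand, 34 exons, 2531 codons) had 4831 and 2573 normalized counts in the libraries labelled WT (replicates 1 and 4) and 1971, 3275 and 2952 in replicates 1, 2 and 4 labelled p75NTR-/-. Replicate 1 labelled WT was highest and replicate 1 labelled p75NTR-/- lowest, and the value of replicate 4 labelled WT lay among those of the other label. *Notch3*, a receptor also prominent in vascular mural cells (ENSMUST00000087723, chromosome 17 from 32120820 to 32166852, minus strand, 33 exons, 2318 codons), had 2795 and 1636 normalized counts under the WT label and 1245, 1862 and 1855 under the p75NTR-/- label. The same 2 libraries were at the ends. Of the 7 mural markers, *Acta2* had 52.0 and 59.3 normalized counts under the WT label and 249, 168 and 63.4 under the p75NTR-/- label, and *Tagln* had 2.94 and 3.12 and then 24.7, 13.2 and 8.45, both higher without overlap, while *Pdgfrb*, *Rgs5*, *Kcnj8*, *Abcc9* and *Vtn* were not in the table. Their part in the *Notch3* values was not tested.

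*Notch2*, a receptor linked to quiescent adult neural stem cells (ENSMUST00000079812, chromosome 3 from 98013538 to 98150361, plus strand, 34 exons, 2473 codons), had 2371 and 734 normalized counts under the WT label and 1188, 1311 and 901 under the p75NTR-/- label. Here the lowest library was replicate 4 labelled WT, so that the values of the libraries labelled WT enclosed all 3 of the others. Its highest library had 3.23 times the level of its lowest, compared with 2.45 times for *Notch1* and 2.25 times for *Notch3*. The receptor transcripts are long, at 8016 to 10500 bases. The 798 gene sums longer than 7000 bases had a median centred log2 value (the value less the gene's mean over the libraries) of 0.19 in replicate 1 labelled WT, whereas shorter ones had -0.04. *Notch1*, *Notch2* and *Notch3* had 0.69, 0.99 and 0.62 there, and the part of length in these values was not tested.

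Among the ligands, *Dll1* encodes a Delta ligand that activates Notch on neighbouring progenitors. Its transcript (ENSMUST00000014917, chromosome 17 from 15367354 to 15375976, minus strand, 11 exons) had 1479 and 787 normalized counts under the WT label and 511, 1050 and 902 under the p75NTR-/- label. *Dll3* encodes a divergent Delta protein that acts within the cell that makes it and inhibits Notch (ENSMUST00000108315, chromosome 7 from 28293553 to 28302238, minus strand, 9 exons). It had 267 and 122 normalized counts under the WT label and 65.3, 157 and 110 under the p75NTR-/- label. For both Delta genes replicate 1 labelled WT was highest and replicate 1 labelled p75NTR-/- lowest. *Dll3* had the widest spread of all members, with 4.09 times between its ends, and its lowest value rests on 66 counts (exact 95% Poisson interval 51 to 84, for counting error alone). A log2 range of at least that size, 2.01, was found in 3.76% of the 10786 gene sums.

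*Jag1* encodes a Jagged ligand. Its transcript (ENSMUST00000028735, chromosome 2 from 137081456 to 137116644, minus strand, 26 exons) had 542 and 610 normalized counts in the libraries labelled WT (replicates 1 and 4) and 1203, 710 and 518 in replicates 1, 2 and 4 labelled p75NTR-/-. It was highest in replicate 1 labelled p75NTR-/-, the library where *Dll1* and *Dll3* were lowest. Replicate 4 labelled p75NTR-/- was lowest, below both libraries labelled WT, so that the labels overlapped.

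The Fringe enzymes add a sugar to the receptor, which favours signaling by Delta over Jagged ligands in many settings. *Lfng* (ENSMUST00000031555, chromosome 5 from 140607320 to 140615545, plus strand, 8 exons) had 2304 and 1653 normalized counts under the WT label and 2771, 2590 and 1751 under the p75NTR-/- label. The 2 libraries numbered 4 were lowest. *Mfng* (ENSMUST00000018313, chromosome 15 from 78755882 to 78773475, minus strand, 8 exons) had 210 and 152 normalized counts under the WT label and 65.3, 175 and 138 under the p75NTR-/- label. Replicate 1 labelled p75NTR-/- held its lowest value, again 66 counts, whereas this library held the highest *Lfng* value. The ratio of *Lfng* to *Mfng* TPM was accordingly 44.3 in this library and 11.4 to 15.5 in the other 4.

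*Lfng* is itself a known Notch target in the embryo, and its promoter is shown because its window holds a pair of matches to the core recognized by Rbpj, as does a window of *Rbpj* itself. The stretch below lies before its start site at chr5:140607180-140607253 (GRCm38.p6, plus strand, RefSeq promoter table). Capitals mark TGGGAA or its other strand TTCCCA, and the E-box CAGCTG, a class of site bound by proneural proteins.
Lfng: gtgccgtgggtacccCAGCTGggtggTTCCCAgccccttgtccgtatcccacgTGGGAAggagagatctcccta
The Rbpj-type matches begin 135 and 108 bases before the start site. Windows of 300 bases (250 before the start site and 50 from it on) were found for 9 members, 13 windows in all, with none matched for *Mfng*. TGGGAA on either strand was present in 3 of the 13, which belong to *Lfng* and *Rbpj*, and in 25.6% of all 32851 promoter windows. The *Rbpj* windows overlap and share a match, which begins 65 and 205 bases before their respective start sites. CAGCTG was present in 4 of the 13, for *Dll1*, *Dll3*, *Jag1* and *Lfng*, and in 16.3% of all windows. In the *Dll1* and *Dll3* windows with this match no listed transcript starts, and the window where the listed *Dll1* transcript starts has no match. Such matches are a description of letters and not of bound sites.

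*Rbpj*, the DNA-binding protein to which Notch intracellular domains bind, had gene sums of 764 and 978 normalized counts in the libraries labelled WT (replicates 1 and 4) and 630, 668 and 1129 in replicates 1, 2 and 4 labelled p75NTR-/-. The libraries numbered 4 were highest under either label, and the labels overlapped. Its 4 listed transcripts, all on the plus strand of chromosome 5 and ending at 53657358 or 53657362, differ at their 5′ ends. The main form (ENSMUST00000113865, 487 codons, starting at 53590471) had 672 and 928 normalized counts under the WT label and 552, 538 and 1014 under the p75NTR-/- label, which is 80.6% to 94.9% of the gene sum. The 507-codon form (ENSMUST00000201912) held 3.59% and 1.06% under the WT label and 3.30%, 11.0% and 3.74% under the p75NTR-/- label. Both others stayed at or below 7.32% in each library, and the form that starts farthest upstream, at 53555834, had 0 counts in replicate 4 labelled WT. Counting error alone allows up to 3.12 normalized counts there. Only 70 of the 5252 bases of this form are in no other listed transcript, so the division of shared reads adds to that uncertainty.

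*Numb* encodes a membrane-associated adaptor that inhibits Notch and is handed to 1 daughter in asymmetric divisions. Its coding forms are known to differ by an insert in the phosphotyrosine-binding domain and another in the proline-rich region. The alternative exons are shown because the 593-, 604- and 642-codon forms are told apart by them. Both lie on the minus strand of chromosome 12, the shorter at chr12:83825259-83825291 and the longer at chr12:83797197-83797343 (GRCm38, GENCODE M21 transcripts). Capitals mark the alternative exon, in lower case are 15 bases on each side in the spliced transcript, and their 33 and 147 bases keep the reading frame.
604-codon form: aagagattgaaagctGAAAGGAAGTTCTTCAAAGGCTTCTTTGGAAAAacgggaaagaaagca
642-codon form: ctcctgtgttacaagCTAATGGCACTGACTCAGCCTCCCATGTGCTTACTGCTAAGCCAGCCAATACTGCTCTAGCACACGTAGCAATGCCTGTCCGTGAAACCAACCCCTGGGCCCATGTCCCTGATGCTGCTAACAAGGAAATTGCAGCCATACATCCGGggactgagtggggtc

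The 593-codon *Numb* form, which has neither exon (ENSMUST00000117217, from 83794034 to 83921934), was the main form in every library. Its normalized counts were 219 and 218 in the libraries labelled WT (replicates 1 and 4) and 129, 196 and 209 in replicates 1, 2 and 4 labelled p75NTR-/-. It held 71.7% and 84.3% of the *Numb* total under the WT label and 56.8%, 79.5% and 84.6% under the p75NTR-/- label. The 604-codon form with the short exon (ENSMUST00000021647) was assigned counts in both libraries numbered 1 alone, with 33.4 normalized counts for the WT label, 10.9% of the gene sum, and 67.3 for the p75NTR-/- label, 29.7%. In the other 3 libraries it was assigned 0 counts. This sets no upper limit on its level, since it shares all its bases with other listed transcripts. The 642-codon form with the long exon (ENSMUST00000154043) had 14.7 and 7.28 normalized counts under the WT label and 8.91, 13.2 and 0 under the p75NTR-/- label. By count the 593-codon form had a limma log2 difference of -0.33 (adjusted p = 0.96), with 218 and 209 normalized counts in the nearest libraries labelled WT and p75NTR-/-. Its share overlapped between the labels, and the 604-codon form was assigned counts in the libraries numbered 1 alone.

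A nonsense-mediated decay form of *Numb* with the short exon (ENSMUST00000085215) also covers the bases of the long exon. It had 24.5 and 0 normalized counts under the WT label and 16.8, 26.4 and 4.23 under the p75NTR-/- label. A 364-base fragment with 36 codons (ENSMUST00000222439) had 13.7 and 17.7 and then 4.95, 6.01 and 19.0. The last listed transcript, a 163-codon fragment that also holds the short exon (ENSMUST00000155112), had 0 and 15.6 and then 0, 4.81 and 14.8, with no count in the libraries numbered 1. Listed transcripts with the short exon thus had counts in every library. The 36-codon fragment took 2.18% to 7.69% of the normalized counts but 59.5% to 83.1% of the *Numb* TPM, since TPM divides by length. The share of the 593-codon form was 78.0% ± 8.94 (SD, n = 2) with the label WT, and with the label p75NTR-/- 73.6% ± 14.8 (SD, n = 3), with p = 0.9 in an exact two-sided permutation test over libraries, which cannot go below 0.1 here. On the TPM scale this difference turned from -4.39 to 5.45 percentage points (exact permutation p = 0.5). All 1815 and 1929 bases of the 604- and 642-codon models, which hold the coding sequence and stop codon alone, lie within other listed *Numb* transcripts, so their counts are Salmon's division of shared reads.

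**Figure D2:**
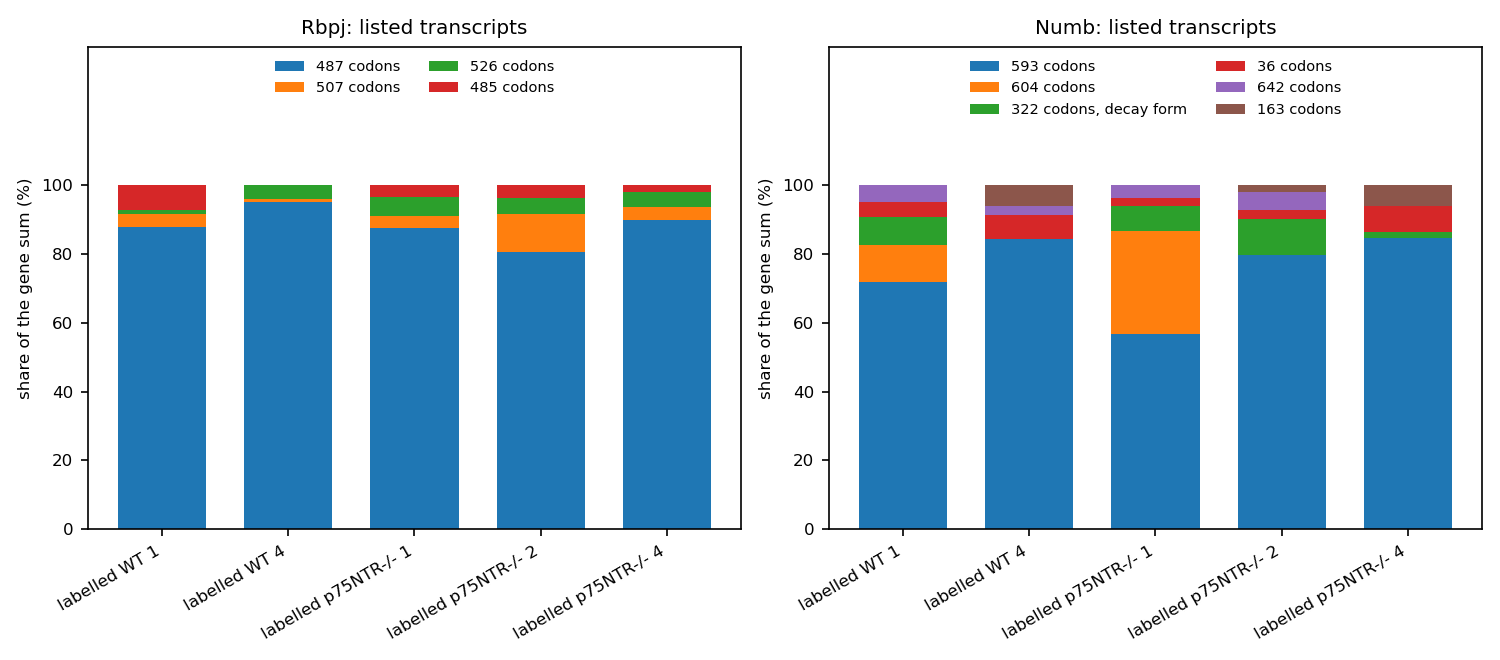
Stacked bars of the share (%) of the *Rbpj* and *Numb* gene sums held by each listed transcript, named by its codons, in the 5 libraries. The 487-codon *Rbpj* form holds 80.6% to 94.9%, and the 604-codon *Numb* form is visible in the libraries numbered 1, at 10.9% and 29.7%.

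The *Numb* gene sum itself was the steadiest of the members, at 305 and 259 normalized counts in the libraries labelled WT (replicates 1 and 4) and 227, 246 and 247 in replicates 1, 2 and 4 labelled p75NTR-/-. It was the sole member whose labels did not overlap, lower in 3 of 3 libraries labelled p75NTR-/-, and gene sums that were lower without overlap made up 6.96% of the 10786. Its means were 282 ± 32.7 (SD, n = 2) and 240 ± 11.6 (SD, n = 3). The log2 difference was -0.23 (95% interval -0.66 to 0.20, limma, adjusted p = 0.93), which does not pass the test.

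**Figure D3:**
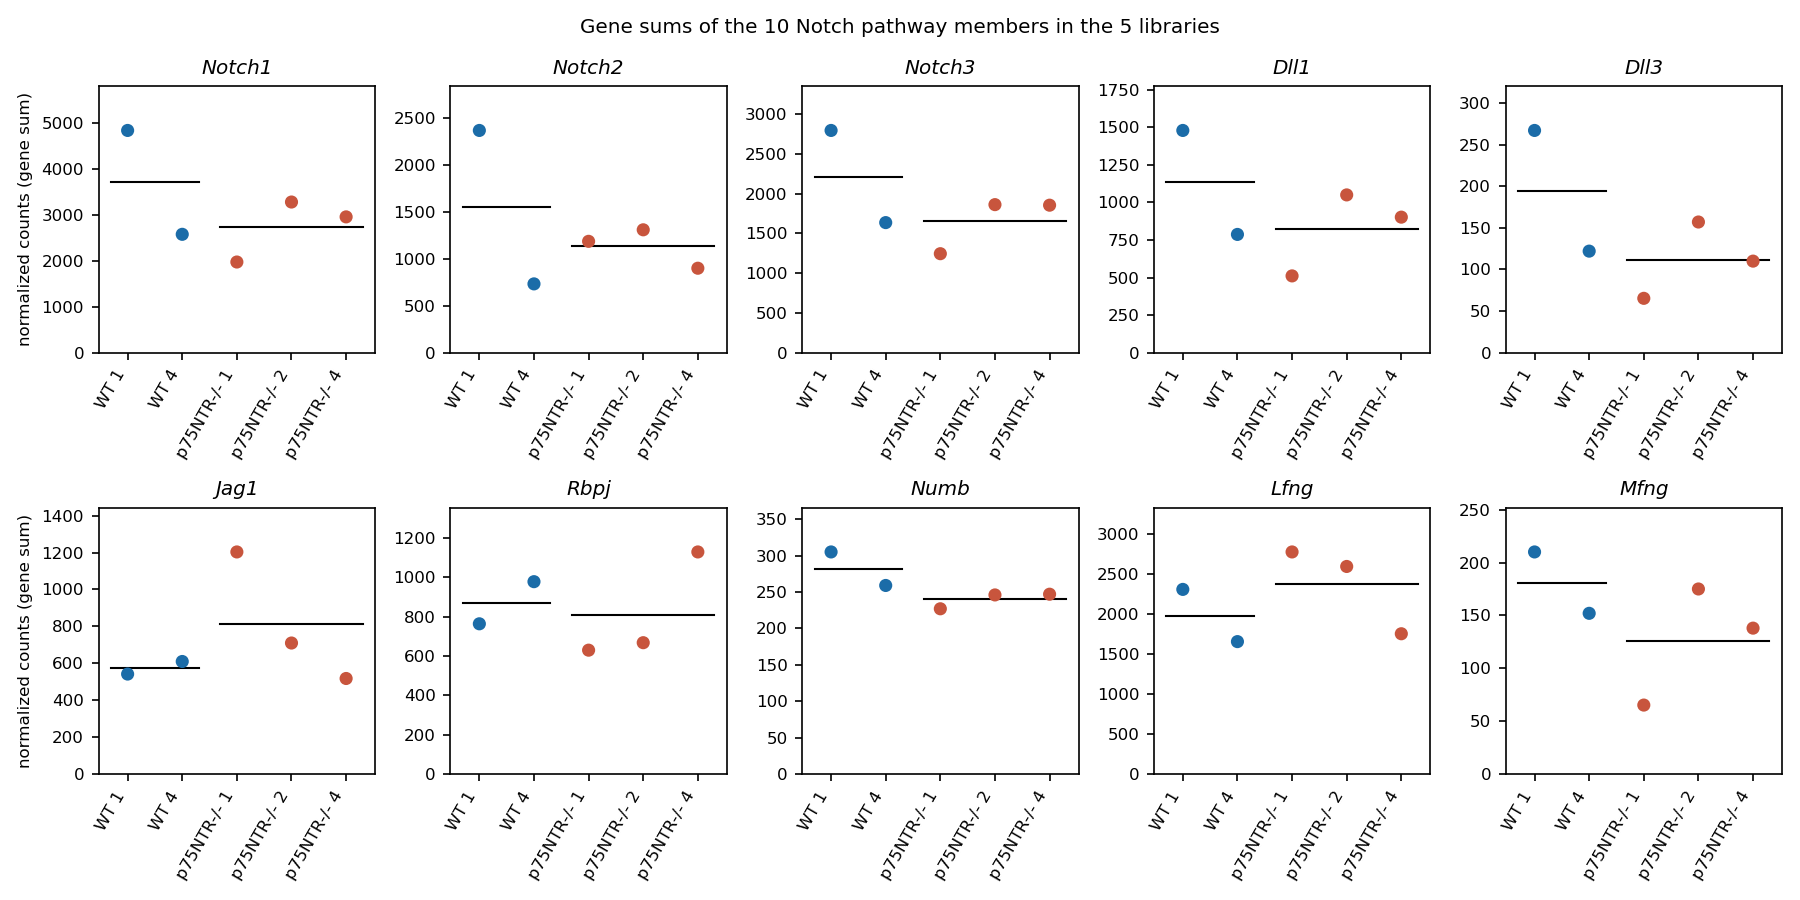
Gene sums (normalized counts, linear axes from 0) of the 10 members, 1 point per library (blue, labelled WT, and red, labelled p75NTR-/-), with black lines at the label means. Points of the labels overlap for all members but *Numb*, and replicate 1 labelled WT is the highest point for 7 members.

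The study compared NSPCs labelled p75NTR-/- with those labelled WT, and *Ngfr* itself goes against these labels. None of the 10 member gene sums was called with the criteria of the methods (mean normalized count of at least 50, fold change of at least 1.5, adjusted p under 0.05), and over all 12588 gene sums limma called 1, or 0.00794%. In limma 0 members had an unadjusted p under 0.05, against 262 of all gene sums, and edgeR and DESeq2 also called 0 members, with 0 and 7 calls over all genes. None of the 18 member transcripts was called either, with 0 at an unadjusted p under 0.05, against 3 calls (0.0135%) and 699 such p values over all transcripts in limma and 0 and 28 calls in edgeR and DESeq2. The median log2 difference was -0.32 over the members, with 8 lower and 2 higher, and 0.02 over all gene sums with a mean of at least 50.

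The fitted differences had wide intervals. The largest was that of *Dll3*, -0.79 (95% interval -2.09 to 0.52), followed by *Mfng* at -0.61 (-1.81 to 0.59), *Dll1* at -0.46 (-1.57 to 0.66), *Notch1* at -0.40 (-1.36 to 0.56) and *Notch3* at -0.39 (-1.24 to 0.45). *Notch2* had -0.24 (-1.60 to 1.13) and *Rbpj* -0.15 (-0.97 to 0.68). *Jag1* and *Lfng* had positive values, 0.41 (-0.58 to 1.40) and 0.25 (-0.49 to 0.99). Every interval included 0 and, in at least 1 direction, a change of 1.5-fold. A difference of that size in that direction was thus not shown to be absent. The adjusted p of the members lay between 0.93 and 0.96 in limma.

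Within the replicate numbers the members moved differently. Between the libraries numbered 1, 6 members were at least 1.5-fold lower under the p75NTR-/- label (*Dll3*, log2 difference -2.01, *Mfng* -1.67, *Dll1* -1.53, *Notch1* -1.29, *Notch3* -1.17 and *Notch2*, 1.99-fold), whereas 13.8% of the 10786 gene sums were that much lower. *Jag1* was the member at least 1.5-fold higher, at 1.15, as were 15.1% of all gene sums. Between the libraries numbered 4, 0 members differed by 1.5-fold, as did 1.56% of all gene sums, and the largest member value was 0.29 (*Notch2*). *Notch1*, *Notch3*, *Dll1* and *Rbpj* had 0.20, 0.18, 0.20 and 0.21 there and *Jag1* -0.24, which is the opposite sign to that over all libraries. *Dll3*, *Mfng*, *Numb* and *Lfng* kept their sign, at -0.15, -0.13, -0.07 and 0.08. Each of these values compares 1 library with 1 library and has no test.

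**Figure D4:**
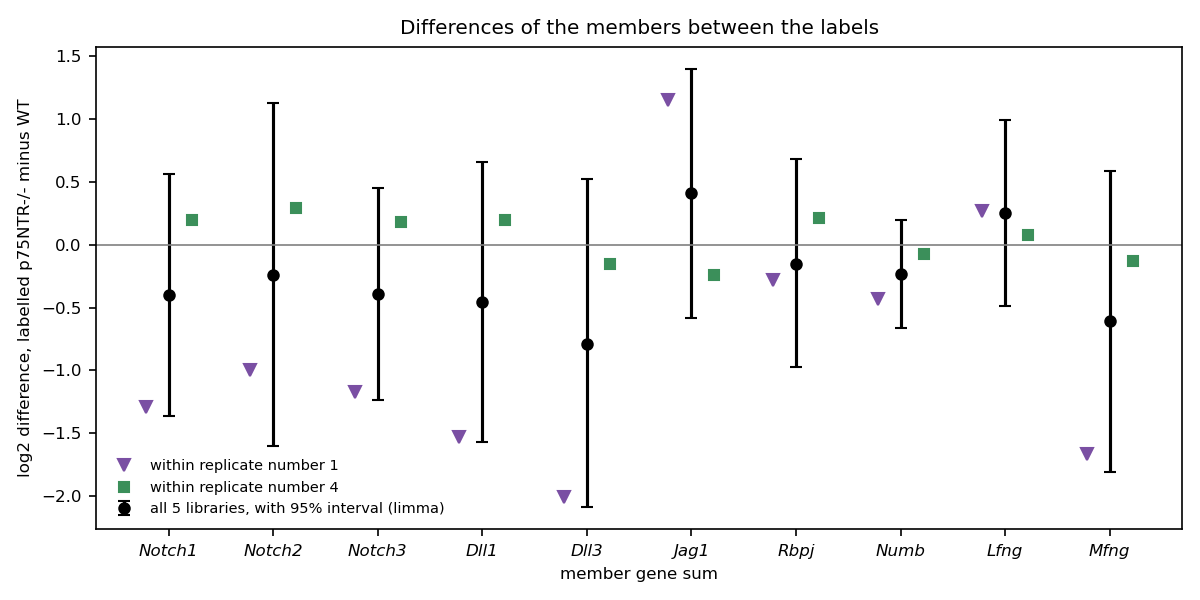
Log2 difference (labelled p75NTR-/- minus WT) of each member gene sum over all 5 libraries with its 95% interval from limma (black), between the libraries numbered 1 (triangles) and between those numbered 4 (squares). All black intervals cross 0, and the squares stay within 0.29 of 0 while the triangles reach -2.01 for *Dll3*.

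Without replicate 1 labelled WT the difference of *Notch2* turned to 0.61 and that of *Notch1* to 0.05, and those of the other members were -0.01 for *Notch3*, 0.00 for *Dll1*, -0.22 for *Dll3*, -0.38 for *Mfng*, -0.11 for *Numb*, -0.32 for *Rbpj*, 0.32 for *Jag1* and 0.49 for *Lfng*. Without replicate 4 labelled WT that of *Lfng* was 0.01 and that of *Rbpj* 0.03, whereas *Notch1*, *Notch2*, *Notch3*, *Dll1*, *Dll3* and *Numb* had -0.85, -1.08, -0.78, -0.91, -1.35 and -0.35. Without replicate 1 labelled p75NTR-/- that of *Jag1* shrank to 0.08 and that of *Mfng* to -0.20. In replicate 1 labelled WT 7 members had their highest value, as did 28.4% of all gene sums. In replicate 1 labelled p75NTR-/- 7 had their lowest, as did 18.7% of the 10786 gene sums. For 6 members (*Notch1*, *Notch3*, *Dll1*, *Dll3*, *Numb* and *Mfng*) both held, a pattern seen in 8.45% of the 10786 gene sums. 7 of the 10 members spanned a log2 range of at least 1 over the libraries, as did 22.8% of all gene sums. The markers of other cells listed above also ranged between these libraries, with *Gfap*, an astrocyte filament gene, at 241 and 11.9 normalized counts in the libraries numbered 1 labelled WT and p75NTR-/-, and their part in the member values was not tested.

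The profiles with the widest range over the 5 libraries were those of *Dll3* and *Notch2*, and the genes most like them were sought by the Euclidean distance of the centred log2 values. For *Dll3* these were *Fam174b* (distance 0.25), *Enpp2*, which encodes the secreted enzyme autotaxin (0.27), and *Myt1*, a zinc-finger factor of neural differentiation (0.28). *Enpp2* had 2361 and 1218 normalized counts under the WT label and 586, 1282 and 1122 under the p75NTR-/- label, with the same ends as *Dll3*. The nearest members were *Dll1* (0.45), *Mfng* (0.56) and *Notch1* (0.59), and *Jag1* was farthest (2.28). For *Notch2* the nearest were *Camk2a*, a calcium-dependent kinase subunit, at 0.09, *Nat2*, an acetyltransferase, at 0.21 and *Svep1*, an extracellular matrix protein gene, at 0.23. *Camk2a* had 436 and 145 normalized counts under the WT label and 221, 239 and 165 under the p75NTR-/- label. *Notch1* was the nearest member to *Notch2*, at 0.91. These distances rest on the same 5 libraries and describe likeness in them only.

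**Figure D5:**
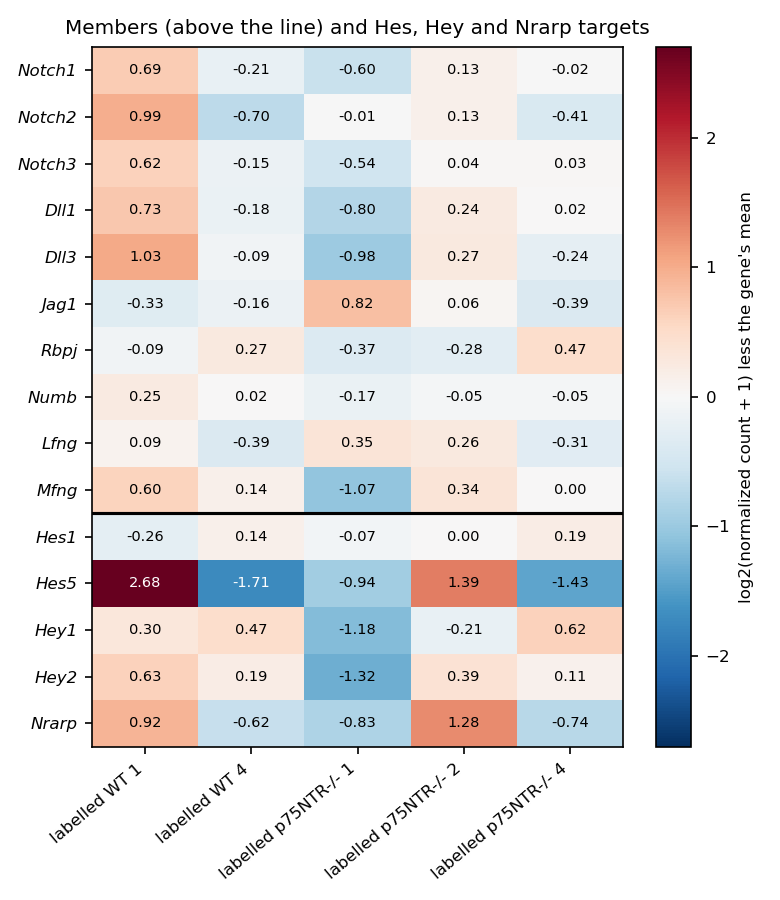
Centred log2 values (log2 of the normalized count plus 1, less the gene's mean over the libraries) of the 10 members and of 5 Hes, Hey and Nrarp targets, as numbers and colours, by library. The Delta ligands run from 0.73 and 1.03 in replicate 1 labelled WT to -0.80 and -0.98 in replicate 1 labelled p75NTR-/-, *Jag1* runs from -0.33 to 0.82 in these libraries, and *Hes5* spans the widest range.

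The rest of the pathway was read from 8 lists with 84 genes, of which 75 were in the table and 66 had a mean of at least 50 normalized counts. None was called in limma, edgeR or DESeq2, and 1, *Egfl7*, had an unadjusted p under 0.05 in limma, at a mean of 14.8. The median log2 difference of the 66 was -0.08, with 26 higher and 40 lower. Labels did not overlap for 4 genes higher and 6 lower, compared with 7.76% and 6.96% of all gene sums. *Notch4*, *Dll4* and the ligand-like *Mfap5* were not in the table, and thus lay under its listing limit, as did *Heyl*.

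Among the remaining receptors and ligands 7 of 10 were listed. *Dner*, a transmembrane Notch ligand without the receptor-binding domain of Delta and Jagged, exceeded *Dll1* in TPM in 5 of 5 libraries, by ratios of 1.79 to 4.44, and had 2927 and 2127 normalized counts under the WT label and 2507, 2104 and 1912 under the p75NTR-/- label. *Cntn1*, a contactin reported to bind Notch, was higher without overlap, with 885 and 868 against 1178, 978 and 991, but did not pass the test (log2 difference 0.25, limma adjusted p = 0.93). *Dlk1* and *Mfap2* stayed at or below 56.0 and 29.6 normalized counts in every library.

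All 10 genes of receptor cleavage were listed and their median log2 difference was -0.17 over the 9 with a mean of at least 50. *Adam10*, the main protease of the ligand-dependent cut, had 2986 and 2989 normalized counts under the WT label and 3212, 2848 and 3077 under the p75NTR-/- label, a span of 1.13 times. *Adam17* spanned 1.06 times, and the gamma-secretase subunits *Ncstn* and *Aph1a* 1.22 and 1.33 times. The other subunit genes were less even: *Psen2* and *Aph1b* spanned 2.72 and 2.05 times, and the low *Aph1c*, at a mean of 14.6, 11.2 times. *Psen2* and *Aph1b* were lower without overlap, and neither passed the test (limma adjusted p = 0.93 for each). These 3 and *Furin*, the convertase that makes the first cut of the receptor, with 1.65 times, were named after their values were seen.

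All 5 genes of sugar modification were listed, with a median of 0.19. *Poglut1*, which adds O-glucose, and *Pofut1*, which adds the O-fucose that Fringe enzymes extend, spanned 1.25 and 1.22 times over the libraries, and *Xxylt1* 1.72 times. *Rfng*, the remaining Fringe gene, had 157 and 188 normalized counts under the WT label and 220, 264 and 209 under the p75NTR-/- label, higher without overlap (log2 difference 0.42, limma adjusted p = 0.93). *Lfng* exceeded it in TPM by ratios of 8.36 to 14.7.

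Ubiquitination and trafficking genes were all listed (17 of 17), with a median of -0.09 over 16 genes. *Nedd4*, a ubiquitin ligase, led with 11775 to 13933 normalized counts. *Eps15*, an endocytic adaptor, had 3862 and 2185 normalized counts under the WT label and 1462, 1917 and 2182 under the p75NTR-/- label, lower by a margin of 3 normalized counts between the nearest libraries (limma adjusted p = 0.93). *Epn2*, an epsin, had its lowest value, 1773, in replicate 1 labelled WT and 3176 to 3677 elsewhere, while *Epn1* spanned 1.11 times. *Numbl*, the paralogue of *Numb* and named after its values were seen, had 327 and 209 normalized counts under the WT label and 82.1, 187 and 244 under the p75NTR-/- label, a wider spread than that of *Numb*.

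The coactivators (8 of 8 listed) had a median of -0.13 and the corepressors (14 of 14) of -0.12. *Maml2*, a Mastermind coactivator, had 1725 normalized counts in replicate 1 labelled WT and 1047 to 1271 in the other libraries. *Ep300*, a histone acetyltransferase, likewise had 1820 against 1019 to 1319, and *Kat2a*, another, ran the other way with 555 against 1036 to 1152. *Snw1* spanned 1.13 times. The corepressor gene *Ncor1* had 4356 in that library and 3225 to 3610 elsewhere, whereas *Hdac2* had its lowest value there, 2853, and *Ctbp1* spanned 1.30 times.

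Of the targets 12 of 13 were listed, with a median of 0.07 over 11 genes, 6 higher and 5 lower, and 0 without overlap. *Fabp7*, the brain lipid-binding protein of radial glia, was the most abundant and almost level, at 35613 to 39744 normalized counts. *Ccnd1*, cyclin D1, had 2250 in replicate 1 labelled WT and 8336 to 9953 in the other 4 libraries. *Myc* was also lowest there, at 452 against 975 to 1667. *Hey1*, a Hairy-related repressor, had 804 and 902 normalized counts under the WT label and 287, 562 and 1002 under the p75NTR-/- label, so that its lowest library was the one with least *Dll1*, *Notch1* and *Notch3*.

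The Hes genes and *Nrarp*, a feedback inhibitor of Notch, were named after their values were seen. *Hes5*, the Hes gene most closely tied to Notch in neural progenitors, varied more than any member, with 546 and 25.0 normalized counts in the libraries labelled WT (replicates 1 and 4) and 43.5, 222 and 30.6 in replicates 1, 2 and 4 labelled p75NTR-/-. It was low in both libraries numbered 4 and in replicate 1 labelled p75NTR-/-, where *Notch1* lay at 2573, 2952 and 1971. It was highest in replicate 1 labelled WT and replicate 2 labelled p75NTR-/-, where *Notch1* had its highest values, 4831 and 3275. From high to low, the libraries stood in the same order for *Hes5* as for *Notch2* (2371, 1311, 1188, 901 and 734). That order was not the one of *Notch1*, and a link to either receptor was not tested. *Nrarp* had 92.2 and 31.2 under the WT label and 26.7, 119 and 28.5 under the p75NTR-/- label, high in the same 2 libraries as *Hes5*. *Hes1*, which also responds to other signals, spanned just 1.36 times, from 491 to 668. The stretch before the *Hes5* start site is shown because it carries a pair of Rbpj-type matches, in capitals, that begin 226 and 82 bases before it (chr4:154960682-154960861, GRCm38.p6, plus strand, RefSeq promoter table).
Hes5: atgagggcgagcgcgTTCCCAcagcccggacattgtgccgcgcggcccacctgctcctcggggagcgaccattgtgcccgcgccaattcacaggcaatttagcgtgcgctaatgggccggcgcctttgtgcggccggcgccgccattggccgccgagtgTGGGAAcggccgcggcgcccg

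Proneural genes, which the Hes proteins repress and which raise Delta ligands, were for the most part not in the table, with *Neurog1*, *Neurog2*, *Neurod4*, *Atoh1* and *Insm1* among those missing from it. *Neurod1* had 9.61 to 19.8 normalized counts.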

How the data were processed

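RNA-Seq values of 5 mouse NSPC libraries, 2 labelled WT and 3 labelled p75NTR-/-, were analysed. Per the labels and methods, the authors prepared stranded mRNA libraries (500 ng of input RNA), quantified reads with Salmon 0.10.2 on the Ensembl transcriptome of GRCm38.p6, imported them with tximport and normalized them with DESeq2 1.22.0 in R 3.6.1. The deposited signal is a normalized count per transcript (a count over a size factor) to which 0.5 was added. With this 0.5 taken off, 100% of values per library were whole multiples (tolerance 0.1 of a count) of a step of 0.981 to 1.20, which gave the counts, 11688211 to 14452396 per library. The deposited TPM, handled as a score because 303 lines repeat a transcript and were dropped, was used for levels between genes. The authors' own fold changes and p-values (their comparison of the labels) and their mean over samples were left aside, and 0 per-sample columns stayed unmapped.

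Normalized counts were summed over the listed transcripts of each symbol. limma 3.58.1 (lmFit, eBayes, R 4.3.3) was run on log2(normalized count + 1), where changes of low genes come out too small, over all 12588 gene sums and all 22227 transcripts without a filter or covariate, with Benjamini-Hochberg adjustment. The design had assumed genes, and the transcript fit was planned beside it. edgeR 4.0.16 and DESeq2 1.42.0 on the recovered counts, pseudocounts of 0.5 and 8, filters at a mean of 10 and 50, TMM factors, TPM, a replicate block, left-out libraries and values within replicate numbers were alternatives. The fits were tested on simulated counts. Tables were made with pandas 2.3.3, numpy 2.4.6 and scipy 1.17.1. Annotation came from GENCODE M21 (22199 transcripts matched) and promoters from RefSeq on GRCm38.p6. Intervals and the limit of 3 counts cover counting error only.

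The members and lists were chosen with earlier results of these data known. Named were every member with each transcript of 5% or more of its gene sum, from each pathway list the called genes and the highest means up to 4, family members not listed, and 3 genes of most similar profile for the 2 members of widest range. A further 4 transcripts of *Rbpj* and *Numb* are described outside this rule, so that all are accounted for. Some genes that the rule for the pathway lists would name are not reported here.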

Additional observations from a re-analysis of the deposited data

How the results depend on the processing

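The count of called members stayed 0 for gene sums and for transcripts, and that of pathway genes stayed 0, under every alternative run, with a replicate block included (0 called members, lowest member adjusted p = 0.98 in limma). Among the alternatives that kept both libraries labelled WT, the lowest limma adjusted p was 0.52 for a member gene sum, 0.36 for a pathway gene and 0.48 for a member transcript. Each came without replicate 4 labelled p75NTR-/-. Fits with a single library labelled WT cannot measure the spread under that label, so their p-values are not given. All 90 log2 differences of the 10 members under 9 other settings (edgeR, DESeq2, TMM factors, TPM, a pseudocount of 0.5 or 8, filters at a mean of 10 or 50, replicate block) kept their direction. In size, *Numb* moved from -0.23 to -0.67 on TPM, where its 36-codon fragment takes most of the total, *Notch2* from -0.24 to -0.47 in DESeq2 and -0.46 in edgeR and *Rbpj* from -0.15 to -0.04 with the replicate block. Within replicate number 4 the direction turned for *Notch1* (0.20), *Notch2* (0.29), *Notch3* (0.18), *Dll1* (0.20), *Jag1* (-0.24) and *Rbpj* (0.21). With each library left out in turn, *Notch1* ranged from -0.85 to 0.05, *Notch2* from -1.08 to 0.61 and *Rbpj* from -0.41 to 0.03, all 3 changing sign. *Notch3* ranged from -0.78 to -0.01, *Dll1* from -0.91 to 0.00, *Dll3* from -1.35 to -0.22, *Mfng* from -0.90 to -0.20, *Numb* from -0.35 to -0.11, *Jag1* from 0.08 to 0.68 and *Lfng* from 0.01 to 0.49. With the libraries numbered 4 left out, chosen after seeing the data, *Dll3* had -1.39, *Notch2* -0.93 and *Jag1* 0.77, with the single library labelled WT assumed to vary like the others. The difference in the share of the 593-codon *Numb* form, -4.39 percentage points, was 5.45 on the TPM scale and -8 once the 2 coding fragments were left out, an alternative added after seeing the data. It ranged from -10.7 to 4.04 with each library left out and turned positive without replicate 4 labelled WT (1.93) and without replicate 1 labelled p75NTR-/- (4.04). The replicate numbers are tied to no litter or day in the labels. Over the 2 shared pairs of numbers the deviations of same-numbered libraries correlated at 0.40 across the 10786 gene sums, which are not independent. With 2 against 3 libraries the intervals of the members are wide, and counts of 66 in the lowest *Dll3* and *Mfng* libraries limit the precision there.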
